A study of Mus musculus with 18 samples.

Results

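The miRNAs of the Dlk1-Dio3 imprinted region were examined in Neuro2A cells, a mouse neuroblastoma line, that carried TATA-binding protein (TBP) with a short or a long polyglutamine tract. The members were the 40 array entries named after miRNAs of the region (an arm suffix allowed), of 566 mouse miRNA entries on the array. The scanner software flags signals that lie well above background. A member was tested where a group existed in which 1 of its probes carried that flag on all 3 arrays, which 9 of the 40 members met. Cells were nucleofected with a TBP-GFP fusion of 16 glutamines (16Q) or 59 glutamines (59Q), and total RNA was taken 24, 36 or 60 h later. Each of the 6 combinations had 3 biological replicates, hybridised in 1 colour to 18 Agilent mouse miRNA arrays. All groups were transiently transfected cells of 1 line that keep their own Tbp gene, all received a fusion, and no untransfected sample was among those analysed. The promoter of the fusion is not given in the sources used here. The labels call the replicates biological without saying whether they were separate cultures, so p-values measure only the spread between these samples.

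The Dlk1-Dio3 region on mouse chromosome 12 holds one of the largest miRNA clusters of mammals. Its miRNAs and the long noncoding RNAs Meg3, Rian and Mirg are made from the maternal chromosome, whereas the protein-coding genes Dlk1, Rtl1 and Dio3 are expressed from the paternal one. The miRNAs are abundant in brain and placenta, and in rat neurons the transcription factor Mef2 drives part of the cluster and thereby dendrite growth. miR-127, miR-434-3p and their neighbours lie opposite to Rtl1 and match its transcript perfectly.

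A miRNA binds its targets mainly through its seed, bases 2 to 8 from the 5′ end. Mature sequences were found for 37 of the 40 members in RefSeq (GRCm38.p6), and these held 37 different seeds, so that no seed was shared between members. The sequences below, 5′ to 3′ with the seed in capitals, are those of the tested members, shown because all measured changes concern them. The prefix mmu denotes mouse. miR-487b, also tested, is named only.
mmu-miR-434-3p: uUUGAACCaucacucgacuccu
mmu-miR-370: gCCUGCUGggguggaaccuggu
mmu-miR-329: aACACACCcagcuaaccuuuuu
mmu-miR-494: uGAAACAUacacgggaaaccuc
mmu-miR-376b: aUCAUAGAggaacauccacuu
mmu-miR-376a: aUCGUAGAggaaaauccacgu
mmu-miR-134: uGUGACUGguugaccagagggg
mmu-miR-485*: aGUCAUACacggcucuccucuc

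All 8 lie on the plus strand of chromosome 12 (GRCm38.p6). miR-434-3p is at chr12:109594565-109594586, within the span of Rtl1, which runs on the opposite strand. miR-370 is at chr12:109618305-109618326, within Rian. Further downstream lie miR-329 (chr12:109713541-109713562), miR-494 (chr12:109715367-109715388) and miR-376b (chr12:109723508-109723528). The last of them are miR-376a (chr12:109723824-109723844), miR-134 (chr12:109734145-109734166) and miR-485* (chr12:109734946-109734967). The old array name miR-485* denotes the 3p arm. miR-376a and miR-376b were identical at 18 of 21 bases (85.7%) and differed, written from miR-376a to miR-376b and counted from the 5′ end, by G4A, A13C and G20U. The first of these lies in the seed, so the 2 relatives have different seeds. GC content ran from 38.1% in miR-376b to 68.2% in miR-370.

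Of all array entries 226 of 566 (39.9%) were tested, against 9 of 40 members (22.5%). The other 31 members did not pass, and 28 of them carried the flag on none of the arrays. Of the tested members, 5 (miR-134, miR-370, miR-376b, miR-487b and miR-494) were well above background on all 18 arrays. miR-434-3p reached that level on 17 arrays, miR-376a on 16, miR-485* on 14 and miR-329 on 13.

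Detected members lay in several parts of the cluster but not evenly along it. Of the 8 members opposite Rtl1, 1 was tested (miR-434-3p) and 7 were on no array, among them miR-127, miR-136, miR-431, miR-433 and both arms of miR-337. Of the 2 members within Rian, miR-370 was tested and miR-341 was not. Of the 30 members further downstream, 7 were tested and 21 were on no array, including miR-379, miR-410, miR-411, miR-382, miR-495, miR-541 and miR-543. The 7 tested all lay in the stretch from miR-329 to miR-485*. Its ends were set by the tested members, and it also held miR-543, miR-495, miR-376c, miR-300, miR-381, miR-539, miR-382 and miR-485, none of them tested. The members before it, from miR-379 to miR-323-3p, were on no array. Nor were those after it, from miR-154 to miR-410, which lie within Mirg. The brightest processed signal on any array among the 28 members ranged from 3.77 (miR-433) to 10.2 (miR-377) intensity units. The arms of 2 hairpins were not detected alike. miR-434-3p was on 17 arrays and miR-434-5p on none, and miR-485* was on 14 and miR-485 on none.

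**Figure D1:**
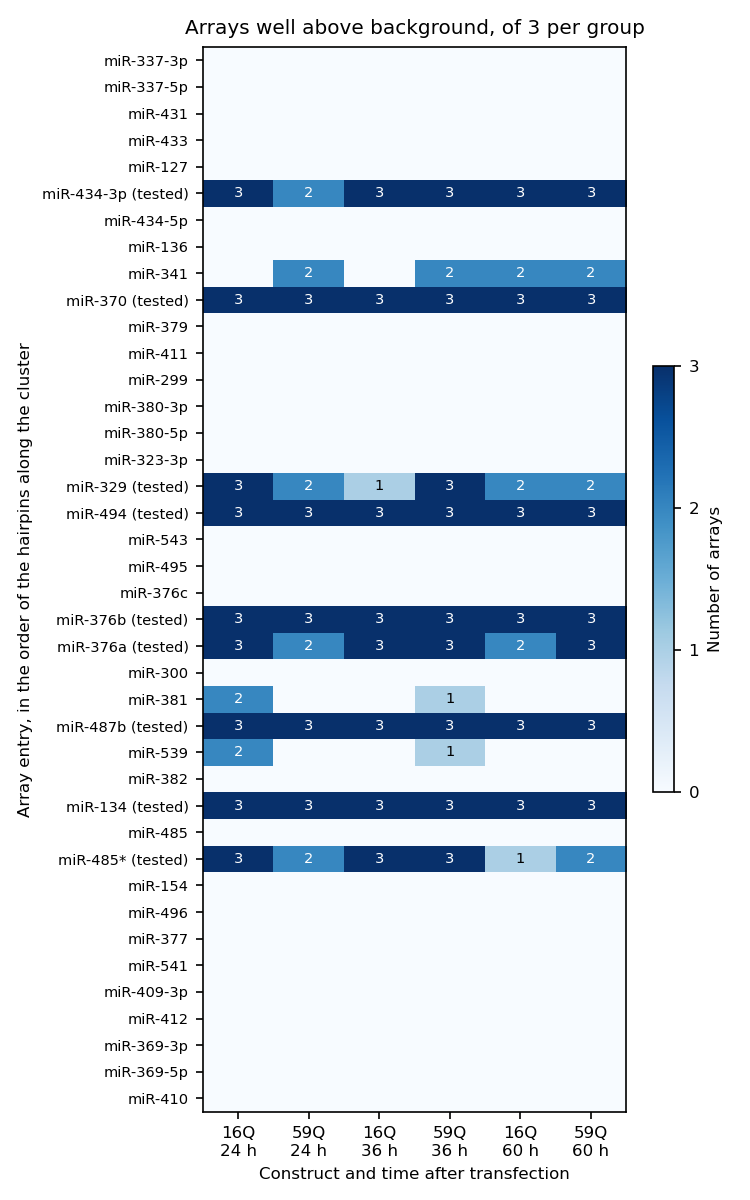
Number of arrays, of 3 in each construct and time, on which each of the 40 members (rows, in order along the cluster) was well above background; darker cells hold more arrays. 9 members were tested, 28 were on no array, and 5 were on all 18.

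Just inside the limit, miR-329 passed in 2 groups, 16Q at 24 h and 59Q at 36 h. Just outside lay miR-341, which was well above background on 2 of 3 arrays in 16Q at 60 h and in 59Q at each time, 8 arrays in all. miR-381 and miR-539 were detected on 3 arrays each, and on the same ones: 16Q 24 h replicates 1 and 2 and 59Q 36 h replicate 2. The brightest probe of miR-539 gave 25.8, 21.2 and 21.5 intensity units on these arrays, and between 3.15 and 10.6 on the other 15. Their mature sequences are shown with that of miR-341 because these members came closest to the limit without passing it.
mmu-miR-341: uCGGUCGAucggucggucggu
mmu-miR-381: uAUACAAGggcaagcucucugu
mmu-miR-539: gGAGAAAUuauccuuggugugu

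This set of 3 arrays was taken from miR-381 and miR-539 themselves. Of the 566 array entries 8 were detected on exactly those 3 arrays, these 2 members among them by choice. The region gave 1 more, miR-299*, the 3p arm of the miR-299 hairpin and not among the 40 members. Whether the region holds more such entries than the rest of the array was not tested. The 3 arrays also stood apart over all tested entries. The median correlation with the other arrays was 0.801 for 16Q 24 h replicate 1, 0.773 for its replicate 2, 0.759 for 59Q 36 h replicate 2 and 0.762 for 1 more array, 59Q 60 h replicate 1. It lay between 0.834 and 0.929 for the other 14 arrays.

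Neuro2A is of neural origin, and the neuronal markers were only partly present. Of 11 listed neuronal miRNAs 10 were on the array and 3 were tested (miR-138 on 18 arrays, miR-7a on 11, miR-218 on 5), whereas miR-9, miR-9* and both miR-129 arms were on no array and miR-124 was on 1. None of 6 blood miRNAs nor the liver miRNA miR-122 was detected on any array. Among 4 muscle and 4 vessel or stroma miRNAs, miR-206 (8 arrays), miR-143 (16) and miR-145 (10) were detected. The arrays cannot show the fusion itself, so the construct labels were not checked. In RNA from whole dishes, fewer cells making a miRNA and less of it per cell cannot be told apart. Between 19.7% and 37.3% of probe spots were well above background on an array, and no spot was saturated.

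Levels below are log2 scaled signals: processed intensities relative to the 75th percentile of the probes that every array detected, so that 0 marks that percentile and -4.11 the floor. They compare 1 miRNA across arrays and not miRNAs with each other.

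mmu-miR-494 was detected on every array. In 16Q cells it measured 0.61, 0.53 and 2.19 at 24 h, 3.05, 1.86 and 1.67 at 36 h, and 2.23, 3.09 and 2.53 at 60 h. In 59Q cells it measured 3.13, 2.12 and 1.69 at 24 h, 2.52, 1.46 and 2.33 at 36 h, and 1.51, 2.35 and 2.77 at 60 h. The 2 lowest of the 18 values were 16Q 24 h replicates 1 and 2, and the 59Q groups overlapped each other at all times.

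mmu-miR-370, a repressor of the fatty acid oxidation enzyme CPT1A in human liver cells, gave -3.12, -3.30 and -2.11 at 24 h in 16Q cells, -1.46, -2.06 and -2.25 at 36 h, and -1.29, -0.96 and -1.58 at 60 h. The 59Q arrays gave -1.14, -2.16 and -2.18 at 24 h, -1.43, -2.38 and -1.70 at 36 h, and -2.37, -1.13 and -1.27 at 60 h. As with miR-494, the lowest values of the series were 16Q 24 h replicates 1 and 2, and replicate 3 of that group lay among the 59Q arrays.

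mmu-miR-134, which restrains dendritic spine size in rat neurons by repressing Limk1, lay at the floor of -4.11 on 16Q 24 h replicates 1 and 2 and at -3.03 on replicate 3. It measured -2.38, -2.99 and -3.15 in 16Q cells at 36 h and -1.45, -1.27 and -2.00 at 60 h. In 59Q cells it measured -1.98, -3.16 and -3.29 at 24 h, -2.15, -2.58 and -2.06 at 36 h, and -3.65, -1.39 and -1.79 at 60 h. All 3 of its 16Q 60 h values lay above all 6 earlier 16Q values.

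mmu-miR-485* is the partner of miR-485-5p, which represses the synaptic vesicle protein SV2A in rat neurons. It gave -0.97, -0.90 and -3.49 in 16Q cells at 24 h, -3.28, -2.17 and -2.48 at 36 h, and -4.07, -4.05 and -3.75 at 60 h. In 59Q cells it gave -4.00, -3.49 and -3.78 at 24 h, -3.45, -0.72 and -1.85 at 36 h, and -3.40, -4.09 and -2.41 at 60 h. The 3 highest of the 18 values were those of the same 3 arrays on which miR-381 and miR-539 were detected. At 60 h in 16Q cells it was well above background on only 1 of 3 arrays.

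mmu-miR-376b and miR-376a belong to a family whose transcripts are edited from adenosine to inosine in the brain, which alters the seed. In 16Q cells miR-376b measured -0.05, -0.43 and -0.63 at 24 h, -1.27, -0.69 and -0.24 at 36 h, and -1.23, -1.66 and -0.68 at 60 h. In 59Q cells it measured -2.69, 0.23 and 0.19 at 24 h, 0.08, -0.56 and -0.30 at 36 h, and -1.93, -0.91 and -0.47 at 60 h. The lowest value of all was 59Q 24 h replicate 1, far below the other two of its group.

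For mmu-miR-376a the 16Q values were -0.70, -0.97 and -1.46 at 24 h, -1.83, -1.08 and -0.92 at 36 h, and -3.49, -2.43 and -1.39 at 60 h. The 59Q values were -4.00, -0.36 and -0.29 at 24 h, -0.54, -1.21 and -1.01 at 36 h, and -2.73, -2.78 and -0.88 at 60 h. Again the lowest value was 59Q 24 h replicate 1, where miR-376a was not well above background.

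mmu-miR-329 lay at the floor on 5 arrays. Its 16Q values were -3.76, -3.58 and -4.11 at 24 h, -4.11, -3.85 and -3.96 at 36 h, and -2.83, -3.0 and -3.42 at 60 h. The 59Q values were -4.11, -4.06 and -4.11 at 24 h, -3.77, -3.12 and -3.47 at 36 h, and -4.11, -2.63 and -3.26 at 60 h. The 16Q values at 60 h lay above all earlier 16Q values. The highest of them, -2.83 on replicate 1, was not well above background, whereas all 3 16Q arrays at 24 h were.

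mmu-miR-434-3p, one of the miRNAs complementary to Rtl1, ranged from -3.88 on 59Q 24 h replicate 1 to -1.56 on replicate 3 of the same group. mmu-miR-487b ranged from -3.85 on 16Q 24 h replicate 1 to -1.14 on 59Q 24 h replicate 1. The array with the lowest miR-376a, miR-376b and miR-434-3p thus had the highest miR-487b and miR-494.

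**Figure D2:**
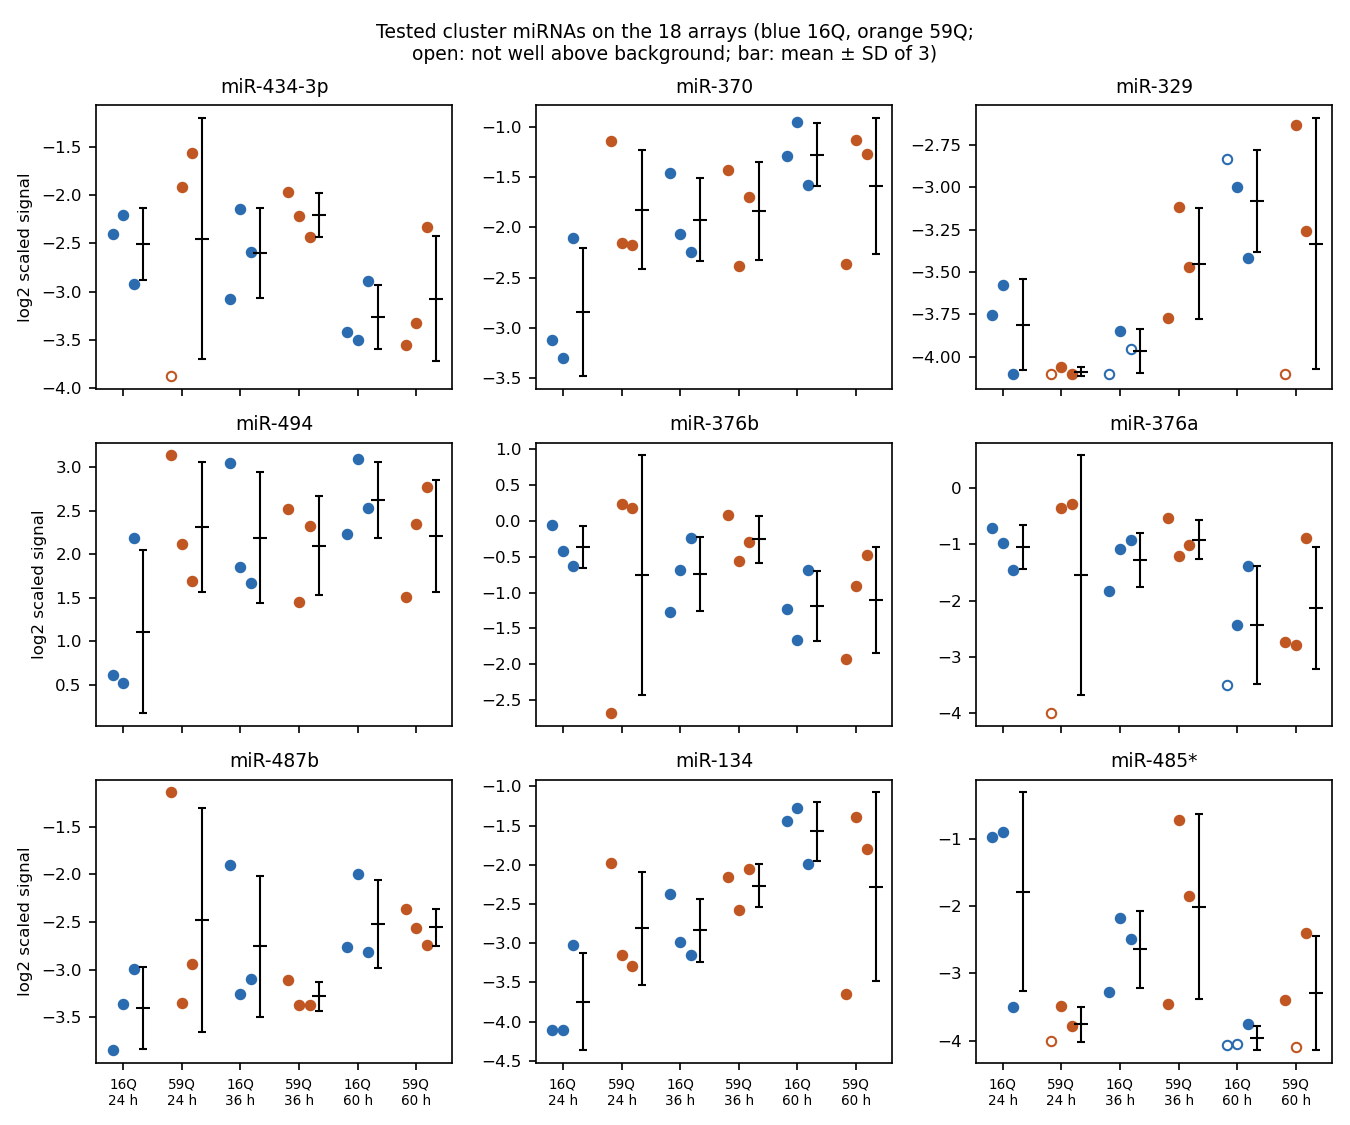
Log2 scaled signal of the 9 tested members on the 18 arrays by construct (blue 16Q, orange 59Q) and time; open points were not well above background, and bars give the mean ± SD of 3 arrays. miR-134, miR-370 and miR-494 were lowest, and miR-485* highest in its group, on replicates 1 and 2 of 16Q at 24 h; vertical scales differ between panels.

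The comparison of 59Q with 16Q asks whether the long glutamine tract is accompanied by other miRNA levels. None of the 9 tested members differed at 24, 36 or 60 h, or averaged over the times (limma, Benjamini-Hochberg over 226 entries at 0.05). The share of all tested entries that passed was 0.442% in each of these 4 comparisons, which is 1 entry of 226. At an unadjusted p under 0.05 there were 3 members of 9 at 24 h and none at 36 h, at 60 h or averaged, against 46, 35, 1 and 2 of 226 entries.

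At 24 h the smallest p among the members was that of miR-485*, with means of -3.76 in 59Q and -1.79 in 16Q cells. The log2 difference was -1.97 (SE 0.68, n = 3 and 3, limma adjusted p = 0.192), and the groups overlapped. miR-494 was higher in 59Q cells by 1.20 (SE 0.52, limma adjusted p = 0.202) and miR-370 by 1.02 (SE 0.42, limma adjusted p = 0.192), neither past the threshold. Without 16Q replicates 1 and 2 the differences were -0.26 for miR-485*, 0.13 for miR-494 and 0.28 for miR-370. Without 16Q replicate 3, all 3 differences passed: -2.82 for miR-485* (limma adjusted p = 0.0128), 1.74 for miR-494 (limma adjusted p = 0.0311) and 1.38 for miR-370 (limma adjusted p = 0.0326). In that fit 50 of 226 entries passed. No member separated the 6 arrays at 24 h, where 10.2% of all tested entries did.

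At 36 h the smallest p was that of miR-329, with means of -3.45 in 59Q and -3.97 in 16Q cells, a log2 difference of 0.52 (SE 0.32, n = 3 and 3, limma adjusted p = 0.445). It was the only member whose groups did not overlap, all 59Q values lying above the 16Q values, where 24.8% of entries separated and 2.21% did so in that direction. Of the 9 members, 7 were higher in 59Q cells, with a median difference of 0.40 against -0.19 over all entries. All 3 59Q arrays lay on slide 2 with only 1 of the 16Q arrays. Against that 1 array the differences ran from -0.18 (miR-487b) to 0.88 (miR-134). There miR-329 gave 0.50 and miR-376b -0.01. With normexp background correction 4 of 9 were higher and the median difference was -0.06. Without scaling between arrays 9 of 9 were higher, while the median of all entries moved to 0.47.

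At 60 h the smallest p was that of miR-134, with means of -2.28 in 59Q and -1.57 in 16Q cells, a log2 difference of -0.71 (SE 0.51, 95% interval -1.78 to 0.36, limma adjusted p = 0.947). The lowest 59Q value, -3.65, came from replicate 1, one of the arrays that stood apart and the only 59Q array at 60 h on the slide of the 16Q arrays. Without it the difference was -0.02. With slide as a block the estimate was therefore that 1 array against 3, -2.08 (limma adjusted p = 0.0202). In that fit 49 of 226 entries passed. No member separated the groups at 60 h, where 3.54% of entries did.

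Averaged over the times, the members' differences lay between -0.22 (miR-485*) and 0.27 (miR-134). The 95% interval was -0.35 to 0.89 for miR-134, -0.25 to 0.77 for miR-370 and -0.40 to 0.87 for miR-494. For miR-376a it was -0.92 to 1.03 and for miR-485* -1.05 to 0.60, so differences of 2-fold between the constructs lie inside the intervals of these 2 members. With 3 arrays against 3 an exact permutation test cannot go below p = 0.1.

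**Figure D3:**
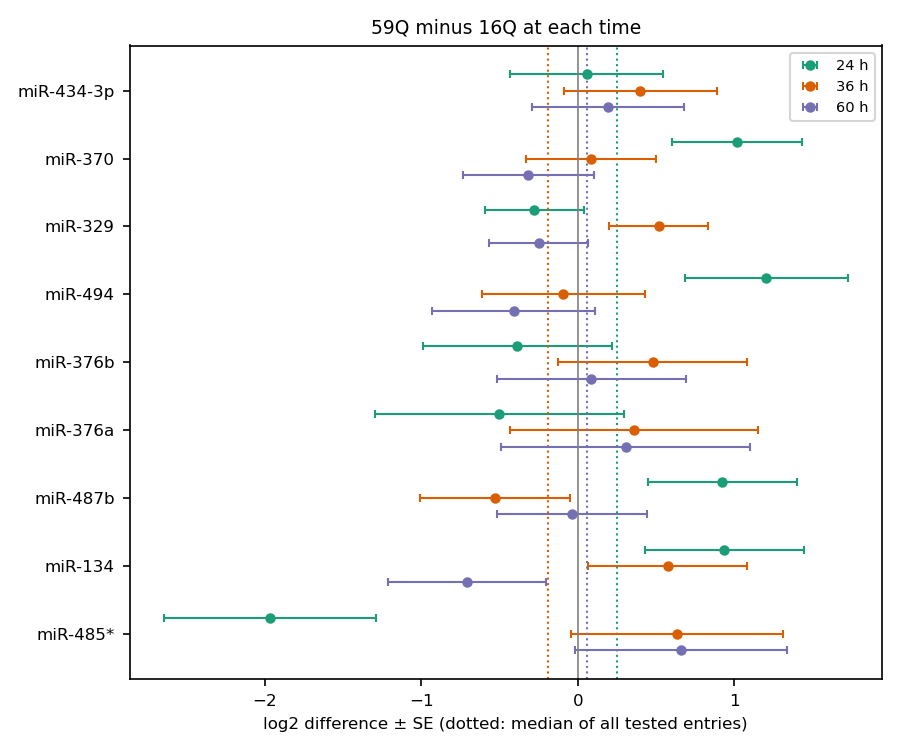
Log2 difference, 59Q minus 16Q, with limma's SE for the 9 tested members at 24, 36 and 60 h (3 arrays per group); dotted lines mark the median of all 226 tested entries at each time. No point passed the threshold; miR-485* at 24 h, at -1.97, lay farthest from 0.

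Whether the difference between constructs changed with time was tested by a moderated F test over the 3 times. No member passed, and 0% of the 226 entries did, with 50 of 226 entries and 1 member at an unadjusted p under 0.05. That member was miR-485*, whose difference was higher by 2.60 at 36 h and by 2.63 at 60 h than at 24 h (F = 4.97, limma adjusted p = 0.215). It passed without 16Q 24 h replicate 3 (limma adjusted p = 0.0333), where 30 of 226 entries passed.

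Within 16Q cells, 4 of the 9 tested members changed between 24 and 60 h (44.4%), when 35.4% of all tested entries changed, so the members' share was near that of the array as a whole. Of the 4, 3 members rose, where 25.2% of entries did, and 1 fell, where 10.2% did. The risers were miR-134, miR-370 and miR-494, and miR-485* fell. The median difference of the 9 members was 0.73, against 0.16 over all entries, and without scaling between arrays these medians were -0.03 and -0.70.

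mmu-miR-134 rose from a mean of -3.75 to -1.57, a log2 difference of 2.18 (SE 0.51, n = 3 and 3, 4.52-fold, limma adjusted p = 0.00928). Both low arrays were at the floor, so the size depended on it: the difference was 2.53 without a floor and 0.55 with a floor 4 times higher, the latter not past the threshold (limma adjusted p = 0.055). With normexp background correction it was 0.78 (limma adjusted p = 0.153). miR-370 rose from -2.84 to -1.28, by 1.57 (SE 0.42, 2.96-fold, limma adjusted p = 0.0158). miR-494 rose from 1.11 to 2.62, by 1.51 (SE 0.52, 2.85-fold, limma adjusted p = 0.0347). miR-485* went from -1.79 to -3.96, a difference of -2.17 (SE 0.68, limma adjusted p = 0.0248). It was not well above background on 16Q 60 h replicates 1 and 2, and with a floor 4 times higher its difference was -0.78, not past the threshold (limma adjusted p = 0.138). In each of the 4 the 24 h and 60 h arrays did not overlap.

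These 4 calls rested on few arrays. Without both 16Q 24 h arrays that stood apart, 1 array remained at 24 h and was assumed to vary like the other groups. The differences were then 1.46 for miR-134, 0.83 for miR-370, 0.43 for miR-494 and -0.46 for miR-485*, with limma adjusted p between 0.430 and 0.789. Leaving out only replicate 1 or only replicate 2 at 24 h, or replicate 2 at 60 h, also ended all 4 calls. Over all entries 13, 6 and 7 of 226 then passed. For these 3 arrays in that order the differences were 2.0, 2.0 and 2.03 for miR-134 (limma adjusted p = 0.0574, 0.0589 and 0.0501) and 1.43, 1.34 and 1.41 for miR-370. They were 1.26, 1.22 and 1.27 for miR-494 and -1.76, -1.73 and -2.12 for miR-485*. Leaving out replicate 1 at 60 h kept only the call of miR-134, and 19 of 226 entries passed. Without replicate 3 at 60 h the call of miR-494 was lost, and 66 of 226 entries passed. None of the 4 passed with normexp background correction or in the deposited log2 table. All 16Q arrays at 24 h lay on one slide and all at 60 h on another, so slide and time cannot be told apart within this comparison. With slide as a block over the whole fit the differences were 2.64, 2.05, 2.30 and -2.41 for miR-134, miR-370, miR-494 and miR-485*, none past the threshold.

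The other 5 members did not pass between 24 and 60 h in 16Q cells. The differences were 0.88 for miR-487b (limma adjusted p = 0.159), 0.73 for miR-329 (limma adjusted p = 0.0821) and -0.76 for miR-434-3p (limma adjusted p = 0.241). For miR-376a the difference was -1.39 (limma adjusted p = 0.182) and for miR-376b -0.82 (limma adjusted p = 0.300). Over all 9 members the 24 h and 60 h arrays did not overlap in 7, with 5 higher and 2 lower at 60 h, while 52.2% of all tested entries did not overlap, 31.9% higher and 20.4% lower.

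In 59Q cells none of the 9 members changed between 24 and 60 h, where 1.33% of all entries passed. The 59Q arrays at 24 h lay on slide 1 and those at 60 h on slides 2 and 3. Slide and time thus cannot be told apart within this comparison. 1 member had an unadjusted p under 0.05, miR-329, with means of -4.09 and -3.33 and a log2 difference of 0.76 (SE 0.32, limma adjusted p = 0.741). That difference was 1.14 without 59Q 60 h replicate 1 (limma adjusted p = 0.0254), where 18 of 226 entries passed. Without all 4 arrays that stood apart, miR-329 (1.14, limma adjusted p = 0.0145) and miR-134 (1.21, limma adjusted p = 0.0475) passed. So did 43 of the 226 entries in that fit, these 2 members among them. With all arrays, the members that changed in 16Q cells gave 0.53 for miR-134, 0.23 for miR-370, -0.10 for miR-494 and 0.46 for miR-485*. Set against the 16Q changes, the 60 h change in 59Q minus that in 16Q cells was -1.64 for miR-134, -1.33 for miR-370, -1.61 for miR-494 and 2.63 for miR-485*. None of these differences between constructs passed the test of time dependence (limma adjusted p from 0.215 to 0.245), so the changes are not shown to differ between 16Q and 59Q cells. Without both 16Q 24 h arrays that stood apart the value of miR-485* was 0.92 (limma adjusted p = 0.917) and that of miR-134 was -0.93 (limma adjusted p = 0.879). miR-134 passed when slide entered the fit as a block, at -3.01 (limma adjusted p = 0.0143), where 55 of 226 entries passed.

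**Figure D4:**
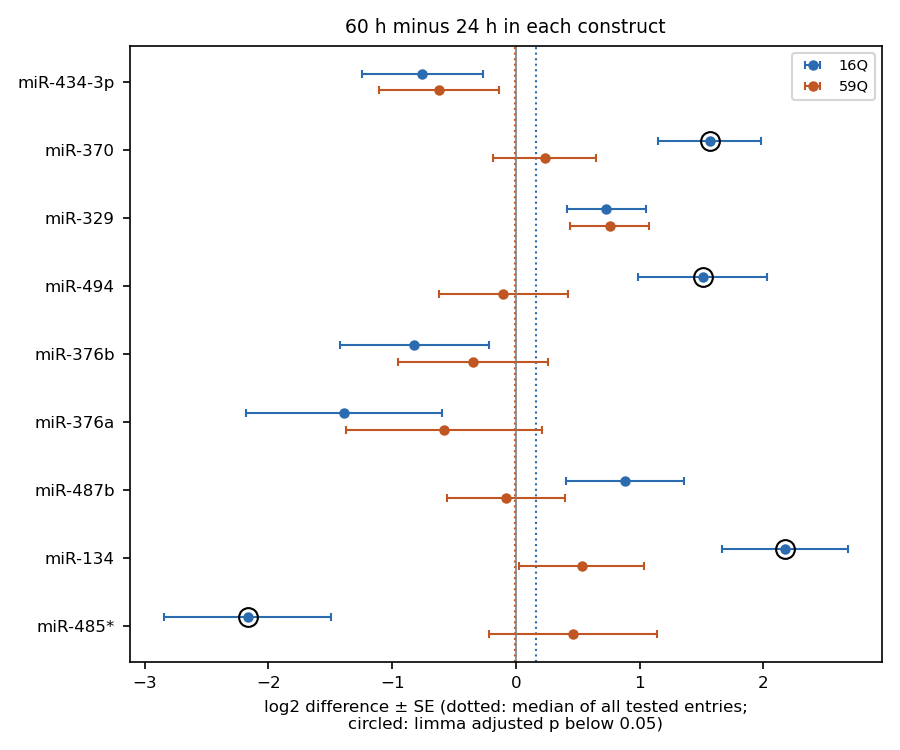
Log2 difference, 60 h minus 24 h, with limma's SE for the 9 tested members in 16Q (blue) and 59Q (orange) cells, 3 arrays per group; dotted lines mark the medians of all tested entries, and circles mark limma adjusted p under 0.05. The 4 circled points, miR-134, miR-370, miR-494 and miR-485*, are all 16Q differences.

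Over the shorter steps no member passed. The share of all entries that passed was 0% for 36 against 24 h in either construct, 0.442% for 60 against 36 h in 16Q cells and 0.885% for 60 against 36 h in 59Q cells. Between 24 and 36 h the differences included 1.08 for miR-494 in 16Q cells (SE 0.52, limma adjusted p = 0.439) and 1.75 for miR-485* in 59Q cells (SE 0.68, limma adjusted p = 0.133). Without 59Q 36 h replicate 2, one of the arrays that stood apart, the latter was 1.1. Without replicate 1 it was 2.47 and passed (limma adjusted p = 0.0303), where 63 of 226 entries passed. All 59Q arrays at 24 h lay on slide 1 and all at 36 h on slide 2. In that step slide and time cannot be told apart. The arrays did not overlap for 3 of the 9 members between 36 and 60 h in 16Q cells (41.6% of all entries), for 2 between 24 and 36 h in 59Q cells (30.5%) and for 1 between 36 and 60 h in 59Q cells (7.08%). They overlapped for every member between 24 and 36 h in 16Q cells (12.8% of entries did not) and between 24 and 60 h in 59Q cells (6.64%). Between 36 and 60 h in 16Q cells miR-134 was higher by 1.27 (SE 0.51, limma adjusted p = 0.369) and miR-329 by 0.89 (SE 0.32, limma adjusted p = 0.290). miR-485*, the other member whose arrays did not overlap there, gave -1.31 (SE 0.68, limma adjusted p = 0.369).

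Probes of a member gave one direction for each of the 4 calls in 16Q cells. The 2 probes of miR-370 gave 1.49 and 1.64, and those of miR-494 lay between 1.47 and 1.54. Probes disagreed in sign for differences near 0, such as those of miR-434-3p between constructs at 24 h, which ran from -0.41 to 0.38.

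Across the 18 arrays the tested members did not vary as one group. miR-134, miR-370 and miR-494 varied together, with Pearson's r between 0.83 and 0.94 for their 3 pairs. So did miR-376a, miR-376b and miR-434-3p, with r between 0.90 and 0.93, although miR-434-3p lies far upstream of the other two. Between these triplets r lay from -0.51 to -0.36. The triplets were chosen after their values were seen, and the points share each array's scaling and hybridisation. Without the 4 arrays that stood apart the ranges were 0.67 to 0.95, 0.90 to 0.93 and -0.69 to -0.52. From deviations within the 6 groups they were 0.82 to 0.94, 0.90 to 0.92 and -0.45 to -0.26. Over all 25425 pairs of tested entries the median r was 0.07, and 3.81% exceeded 0.9. The 5th and 95th percentiles of r over these pairs were -0.72 and 0.88. Over the 18 arrays, r between the triplets lay inside that range, as did the lowest r of the first triplet.

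**Figure D5:**
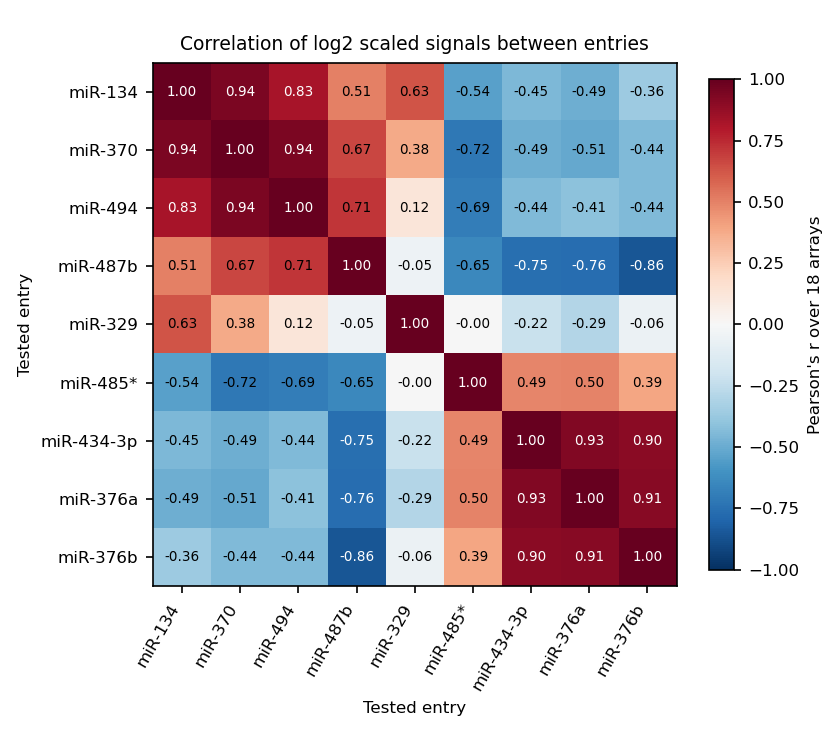
Pearson's r over 18 arrays between the log2 scaled signals of the 9 tested members (red positive, blue negative). miR-134, miR-370 and miR-494 form one block of r from 0.83 to 0.94 and miR-434-3p, miR-376a and miR-376b another of 0.90 to 0.93, with r below 0 between the blocks.

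GC content was 59.1%, 68.2% and 45.5% in miR-134, miR-370 and miR-494, and 42.9%, 38.1% and 45.5% in miR-376a, miR-376b and miR-434-3p. The lowest value of the first triplet thus equalled the highest of the second. Whether base composition bears on the triplets was not tested. miR-487b followed the first triplet (r from 0.51 to 0.71) and ran against the second (r from -0.86 to -0.75).

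The array holds 33 further entries of the region that are not among the 40 members, some the opposite arms of the same hairpins and some products of neighbouring ones, and 4 of them were tested. These were miR-770-3p (well above background on 17 arrays), from the hairpin within Meg3, miR-667 (15 arrays), miR-433* (12 arrays) and miR-654-3p (9 arrays). For miR-433*, miR-654-3p and miR-770-3p the other arm of the hairpin was on no array. Between constructs none of the 4 passed at any time. In 16Q cells miR-770-3p rose between 24 and 60 h, from -4.11, -4.03 and -3.31 to -2.12, -1.81 and -2.61, by 1.63 (SE 0.54, limma adjusted p = 0.0308), where 25.2% of all entries rose. Only 1 of its 4 probes was well above background on all 3 arrays of a group, so the call rested on that probe. The lowest miR-770-3p values in 16Q cells were again replicates 1 and 2 at 24 h, with replicate 1 at the floor. Without both of them the difference was 1.13 and did not pass (limma adjusted p = 0.477), and without either alone it did not pass (limma adjusted p = 0.106 and 0.114).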

How the data were processed

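Per the file headers, Agilent Feature Extraction 9.5.1.1 made the deposited scanner files. Each gives spot intensity values as a mean signal, a background and a processed, background-subtracted signal, with no scaling between arrays. The deposited series table holds log2 values that equal log2 of the net intensity of the same spots, and it served as an alternative.

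Processed signals were averaged over a probe's unflagged spots. A probe counted as well above background where at least 50% of those spots were flagged so. Arrays were scaled to the 75th percentile of 290 mouse probes detected throughout, floored at 0.0581 and put on the log2 scale. Probes that passed on all 3 arrays of some group (557 probes) were averaged into 226 entries. Control and viral spots were not used. Names come from the array design, and old names were assigned to RefSeq arms by miRBase usage.

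One limma 3.58.1 fit (R 4.3.3; lmFit and eBayes) had 6 group means and 12 residual degrees of freedom. Benjamini-Hochberg adjustment ran over 226 entries at 0.05, and the procedure was tested on simulated data. The simulated data held no difference between slides, so that test does not bear on slide. The number of arrays, 18, limits the precision. Members, lists and tests were chosen with earlier results of these data known. Every tested member is named, with array values for members past the threshold, for the 5 with the highest mean and for the smallest p in each 59Q versus 16Q comparison, and ranges for the others. The arrays lay on 3 slides. The replicate numbers were not used as pairs. The labels do not say whether they pair the samples, and correlations of deviations from means of 3 arrays cannot settle it.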

Additional observations from a re-analysis of the deposited data

How the results depend on the processing

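The count of members that passed between 24 and 60 h in 16Q cells, 4, was 0 with normexp background correction (offset 50), with the deposited log2 table, with a floor 4 times higher, with slide as a block, without the 4 arrays that stood apart and without both 16Q 24 h arrays among them (the last chosen after seeing the data). It was 2 without scaling between arrays (41 of 226 entries passed) and 1 without a filter on dim probes (27 of 566). With single arrays of the 2 groups left out it was 0 to 4 (6 to 99 of 226). It was 5 without 59Q 24 h replicate 1, 59Q 60 h replicate 1 or 59Q 60 h replicate 2 (82, 93 and 83 of 226). It was 5 in a fit of only the arrays compared, where 98 of 226 entries passed and miR-376a was among them (-1.39, limma adjusted p = 0.0352). Between constructs, counts of 0 became up to 3 at 24 h with single replicates left out (range 0 to 3). The 3 came without 16Q 24 h replicate 3, where 50 of 226 entries passed. At 60 h the count was 1 with slide as a block, where 49 of 226 entries passed. For time dependence the count was 1 with slide as a block (55 of 226 entries) and 0 to 1 with single replicates left out. The 1 came without 16Q 24 h replicate 3 (30 of 226). In 16Q cells from 36 to 60 h it was 3 in a fit of only the arrays compared (34 of 226 entries). It was 1 without the 4 arrays (13 of 226) and 1 without 59Q 60 h replicate 1 (11 of 226). In 59Q cells from 24 to 60 h it was 2 without the 4 arrays (miR-134 and miR-329), where 43 of 226 entries passed. With single replicates left out it was 0 to 1, the 1 without 59Q 60 h replicate 1 (18 of 226). From 24 to 36 h it was 0 to 1, the 1 without 59Q 36 h replicate 1 (63 of 226). The cause of these changes was not tested. Counting only detection on all 18 arrays left 5 members and 0 of the other entries of the region, and 2 of those where every spot had to be flagged (both rules for the other entries chosen after seeing the data). The numbers of the replicates were not used as pairs: of 27 correlations of deviations, from -0.67 to 0.75, 9 were over 0.1. With 3 arrays in a group these correlations cannot exclude pairing. With the replicate number as a block, 4 members passed between 24 and 60 h in 16Q cells and 0 in every other comparison. No called value changed its sign under any alternative. Of 2159 alternative values for the 95 uncalled differences, 15 passed. These values do not include fits that left out a single array of a group not compared. Calls gained in such fits are among the counts given above. Low signal limits miR-329, at the floor on 5 arrays, and the 28 members with no detected array, for which no difference could be measured.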
